A study of Mus musculus with 7 samples.

Results

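Fc receptors bind the constant tail of antibodies, and 6 genes of this family were followed through the transcriptomes of mouse bone marrow-derived macrophages (BMDMs). The members were taken by symbol. They were Fcgr1, Fcgr2b, Fcgr3 and Fcgr4, which encode receptors for IgG, together with Fcer1g, the signalling chain that several of these receptors share, and Fcgrt, the heavy chain of the neonatal Fc receptor FcRn. Each symbol named exactly 1 row among the 48440 genes of the LPS table and 1 row among the 55352 genes of the AAV table.

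Macrophages carry IgG receptors of opposite sign. FcγRI (Fcgr1), FcγRIII (Fcgr3) and FcγRIV (Fcgr4) are activating: they sit with the Fcer1g chain, whose ITAM is phosphorylated by Src family kinases and then recruits Syk, and this starts phagocytosis of antibody-coated targets. FcγRIIb (Fcgr2b) is the only inhibitory IgG receptor of the mouse and carries its own ITIM, which recruits the phosphatase SHIP1 (Inpp5d). FcRn works inside the cell, where it holds IgG and albumin in acidic endosomes, saves them from degradation and needs B2m as its light chain.

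All 7 samples were C57BL/6 BMDMs that had been differentiated with M-CSF, labelled wild type except for AAV-Shisa3, whose genotype label is Shisa3 overexpression. In the LPS experiment the cells were unstimulated (LPS 0h) or were given lipopolysaccharide at 100 ng per mL for 2 h (LPS 2h) or 4 h (LPS 4h), with 1 library at each time. In the AAV experiment the cells spent 48 h with an adeno-associated virus (AAV1) that carried GFP (AAV-GFP, 2 samples) or Shisa3 (AAV-Shisa3, 2 samples), both under the ubiquitous CAG promoter, so the control cells carried a virus too. SHISA3 is a transmembrane protein of the SHISA family, and the study asked how it alters macrophage function. The labels do not say that the samples came from separate animals or cultures, so p-values measure only the spread between these samples.

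The LPS libraries held 7263258 to 32659392 recovered reads, the smallest of them at 2 h, and the depth of the AAV samples is unknown. The macrophage label was checked against 9 markers, all of which reached 1 TPM in the AAV samples, with a summed level of 34774 to 38587 TPM, most of it from Lyz2. Of these markers Cd14 was higher in AAV-Shisa3 (log2 fold change 0.78, limma adjusted p = 0.0153). T cell, NK cell and mast cell or basophil markers stayed at or below 0.92 TPM in sum, dendritic cell markers at 2.68 to 3.92 TPM, B cell markers at 8.07 to 13.8 TPM and fibroblast markers at 9.39 to 16.3 TPM. The neutrophil list was not at 0 and was unequal between the AAV groups, at 682 and 671 TPM in AAV-GFP against 1186 and 785 TPM in AAV-Shisa3, with Camp and Ngp past the test. Within that list S100a9 was at 312 to 602 TPM, S100a8 at 165 to 290.03 TPM and Ngp at 47.9 to 124 TPM, and Ly6g was at most 0.29 TPM. The part of these cells in the results was not tested, and in bulk RNA fewer cells of a type and less RNA per cell cannot be told apart.

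The identifiers in GENCODE M21 are ENSMUSG00000015947.10 for Fcgr1, ENSMUSG00000026656.15 for Fcgr2b, ENSMUSG00000059498.13 for Fcgr3, ENSMUSG00000059089.4 for Fcgr4, ENSMUSG00000058715.11 for Fcer1g and ENSMUSG00000003420.8 for Fcgrt. On GRCm38, 4 of the 6 genes lie within 276 kb of chromosome 1. These are Fcgr2b at chr1:170958617-170976547 on the minus strand, Fcgr4 at chr1:171018920-171029761 on the plus strand, Fcgr3 at chr1:171051174-171064935 on the minus strand and Fcer1g at chr1:171229572-171234365 on the minus strand. Fcgr1 lies at chr3:96282909-96293969 and Fcgrt at chr7:45092990-45103851, both on the minus strand. The deposited tables hold no coordinates and the labels name the older build mm9, so these positions come from GENCODE M21 and not from the tables.

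The IgG receptors are related in sequence, and reads could in principle be split between them. No stretch of 150 bases, the length of the reads, was shared by the coding transcripts of any pair of members. At 75 bases Fcgr2b and Fcgr3, which have similar extracellular parts, shared 94 windows, which were 2.48% of those of Fcgr2b and 5.78% of those of Fcgr3. Antisense gene models overlap Fcgr2b (Gm38204, by 3175 bases) and Fcgrt (Gm45669, by 5331 bases), and the strand setting of the counting is not given in the sources used here. Gm38204 had 1, 10 and 52 reads at 0, 2 and 4 h and at most 0.21 TPM, and Gm45669 was listed at 0 in all 4 AAV samples.

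The 250 bases before the RefSeq start of 4 members are shown because Fcgr1 and Fcgr4 moved alike under LPS while Fcgr3 and Fcgrt did not. Each is written 5′ to 3′ on the strand of its gene (GRCm38.p6), from chr3:96293970-96294219, chr1:171018676-171018925, chr1:171059404-171059653 and chr7:45103823-45104072. Capitals mark matches to 4 motifs that were picked after the promoters had been read and were searched on both strands. A link of these letters to the LPS response was not tested. The window of Fcgr2b, which also rose under LPS (3.92-fold at 2 h and 9.35-fold at 4 h), is not shown. GENCODE places 6, 27 and 29 bases of the Fcgr4, Fcgr3 and Fcgrt windows inside exons of these genes. The whole Fcgr3 window lies within the GENCODE gene, whose outermost start is farther upstream than the RefSeq start used here.
Fcgr1: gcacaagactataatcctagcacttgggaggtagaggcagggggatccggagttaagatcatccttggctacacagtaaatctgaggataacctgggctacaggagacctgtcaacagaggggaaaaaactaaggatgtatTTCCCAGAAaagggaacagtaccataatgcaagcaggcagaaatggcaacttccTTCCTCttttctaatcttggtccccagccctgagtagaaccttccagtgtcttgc
Fcgr4: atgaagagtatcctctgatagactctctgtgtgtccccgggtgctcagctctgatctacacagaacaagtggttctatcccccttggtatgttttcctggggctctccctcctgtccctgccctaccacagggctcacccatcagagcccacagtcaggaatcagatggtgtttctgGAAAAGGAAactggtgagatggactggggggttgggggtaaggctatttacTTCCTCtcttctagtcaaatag
Fcgr3: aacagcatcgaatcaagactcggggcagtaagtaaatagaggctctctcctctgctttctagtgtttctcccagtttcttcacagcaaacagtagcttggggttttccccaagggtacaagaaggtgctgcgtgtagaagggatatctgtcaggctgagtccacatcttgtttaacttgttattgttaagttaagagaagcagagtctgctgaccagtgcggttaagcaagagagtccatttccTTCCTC
Fcgrt: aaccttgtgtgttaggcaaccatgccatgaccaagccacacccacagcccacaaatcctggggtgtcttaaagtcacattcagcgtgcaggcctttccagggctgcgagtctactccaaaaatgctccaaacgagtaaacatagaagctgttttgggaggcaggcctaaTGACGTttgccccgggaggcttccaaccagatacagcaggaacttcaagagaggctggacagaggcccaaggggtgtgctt

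All 3 activating receptors held GAGGAA, the core letters bound by the myeloid factor PU.1, on the strand opposite to the gene, where it reads TTCCTC in the lines above. It began 55 bases before the start in Fcgr1, 22 bases before it in Fcgr4 and 6 bases before it in Fcgr3. The same letters were found in 23.1% of 27025 promoters of this length. Only Fcgr1, among the 6 members, held the interferon-γ activated sequence TTCNNNGAA, 109 bases before the start (7.18% of promoters), and only Fcgr4 held the interferon response letters GAAANNGAA, 73 bases before it (7.16% of promoters). Fcgrt held TGACGT, only part of the letters of a cAMP response element, 81 bases before the start (6.56% of promoters). The windows of Fcgr2b and Fcer1g held none of the 4 motifs. Of the Fcgr2b window 187 of the 250 bases lie in GENCODE exons of the gene, so it is mostly transcribed sequence. The longest stretch that Fcgr1 and Fcgr3 shared was 10 bases and contained the PU.1 letters. Every other pair of members shared a stretch of 7 to 9 bases, so this length barely stood out.

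The LPS time course addressed which macrophage genes respond to a bacterial stimulus. Of the IgG receptors, Fcgr1, Fcgr4 and Fcgr2b stood at 3.18 to 3.92 times their 0 h value after 2 h and at 9.35 to 13.3 times it after 4 h, whereas Fcgr3 stayed within 2-fold. Fcer1g passed 2-fold only at 4 h. Fcgrt was the only member whose value at 4 h was below that at 0 h. With 1 library at each time there was no test and no p-value, intervals cover counting error only, and the 2 h and 4 h comparisons share the 0 h library.

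Fcgr1, the high-affinity receptor that can bind monomeric IgG, was at 1432 normalised reads at 0 h, 4551 at 2 h and 15965 at 4 h, from 2226, 2084 and 29380 reads. These values were 3.18-fold (95% counting interval 2.99 to 3.38) and 11.1-fold (10.7 to 11.6) of the 0 h value. Fcgr4, an activating receptor for IgG2a and IgG2b, went from 623 normalised reads at 0 h to 2099 at 2 h and 8285 at 4 h, which was 3.37-fold (3.08 to 3.69) and 13.3-fold (12.5 to 14.2). It had the largest 4 h fold of the members and, at 968 and 961 reads in the libraries of 0 h and 2 h, the fewest reads at both times. The pair thus stood higher at each later time, with intervals that did not meet.

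Fcgr3, the activating receptor for immune complexes, behaved differently: its values were 10656, 14746 and 18551 normalised reads, or 1.38-fold at 2 h (1.35 to 1.42) and 1.74-fold at 4 h (1.71 to 1.77). It was the member with the most reads at 0 h, at 16566. Fcer1g, the chain on which the activating receptors depend, was at 4293, 5599 and 10209 normalised reads. This was 1.30-fold at 2 h and 2.38-fold at 4 h (2.31 to 2.45), a smaller fold than that of the receptors Fcgr1 and Fcgr4 that it serves.

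The inhibitory receptor Fcgr2b moved with the activating receptors Fcgr1 and Fcgr4 and not against them. Its values were 1842, 7213 and 17230 normalised reads, from 2864, 3303 and 31707 reads. They gave the largest 2 h fold of the members, 3.92 (3.72 to 4.12), and a 4 h fold of 9.35 (9.0 to 9.72). Fcgrt was above its 0 h value at 2 h and below it at 4 h: it was at 2001 normalised reads at 0 h, 3714 at 2 h and 1475 at 4 h, that is 1.86-fold (1.75 to 1.97) and then 0.737-fold (0.700 to 0.776) of the 0 h value. Between 2 h and 4 h the ratio was 0.397.

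By the count of genes past 2-fold, 3 of 6 members were higher at 2 h and 4 of 6 at 4 h, and none were lower. Of the 17854 genes kept for this comparison, which averaged 1 or more, 20.5% were past 2-fold upward at 2 h and 24.7% past 2-fold downward. At 4 h these shares were 22.2% and 23.6%. The balance of the directions depends on the scale, since library totals gave 2335 genes upward and 7845 downward at 4 h and centring gave 5285 and 3036. The median log2 fold change of the members was 1.28 at 2 h and 2.24 at 4 h, beside -0.05 and -0.04 for all these genes. Few genes stood as high as the leading members at 4 h: 2.85% of genes had a log2 change at least that of Fcgr4, 3.41% at least that of Fcgr1 and 4.13% at least that of Fcgr2b.

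The scale of the libraries bears on the smaller changes. When the recovered reads were scaled to library totals instead, the median log2 change of all genes moved to -0.68 at 2 h and -0.81 at 4 h. On that scale Fcgr1, Fcgr4 and Fcgr2b remained higher at 4 h, at 6.30-fold, 7.52-fold and 5.28-fold, while Fcgr3 turned to 0.875-fold at 2 h and 0.984-fold at 4 h. Fcer1g turned to 0.825-fold at 2 h and was 1.34-fold at 4 h, and Fcgrt was 1.17-fold and then 0.417-fold. The order of the members' folds was the same on both scales, since 1 factor moves all genes of a library together.

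**Figure D1:**
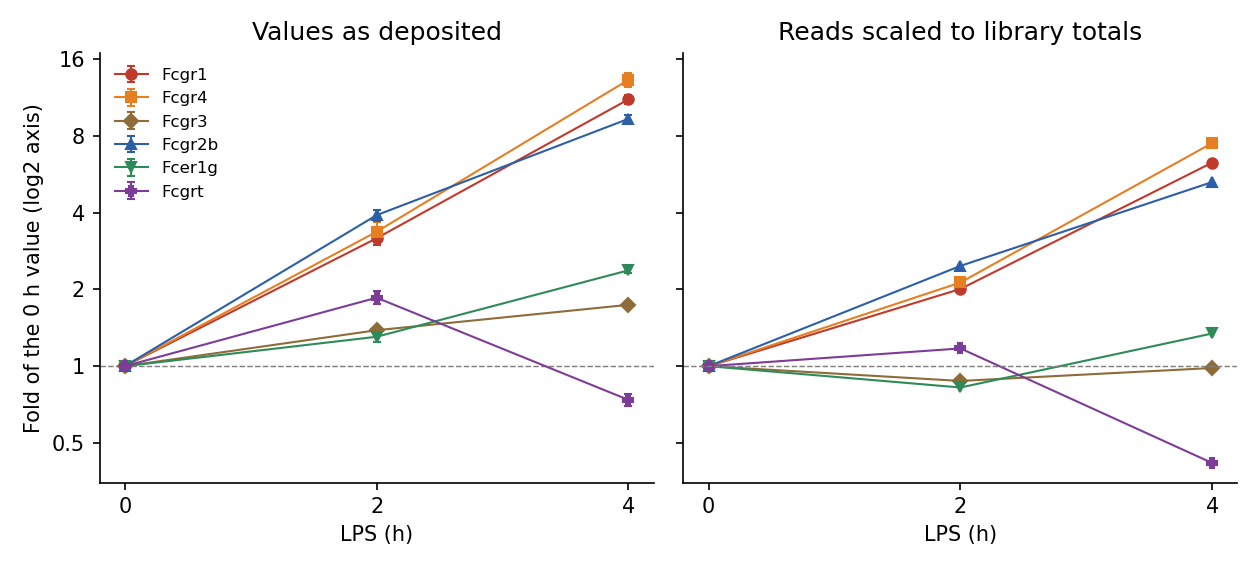
Fold of the 0 h value on a log2 axis against hours of LPS for the 6 members, with the deposited values on the left (bars are 95% counting intervals, most hidden by the symbols) and reads scaled to library totals on the right. Each point is 1 library. Fcgr1, Fcgr4 and Fcgr2b end at 9.35- to 13.3-fold on the left and 5.28- to 7.52-fold on the right, and only Fcgrt ends below 1 on the left.

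Because a library's factor cancels within that library, ratios between members do not depend on the scaling. LPS levels were taken per kb of the longest coding transcript of each gene. The sizes of these shares and ratios do depend on that length, and no other was tried. On this measure Fcgr3 made up 83.5% of the summed level of the 4 IgG receptors at 0 h, 66.7% at 2 h and 43.9% at 4 h. The share of Fcgr1 was 5.83%, 10.7% and 19.6%, that of Fcgr4 was 5.23%, 10.2% and 21%, and that of the inhibitory Fcgr2b was 5.48%, 12.4% and 15.5%. A pool in which Fcgr3 was predominant at 0 h was therefore spread over all 4 receptors at 4 h.

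The balance of activating to inhibitory transcripts moved toward the inhibitory side by this measure. The summed level of Fcgr1, Fcgr3 and Fcgr4 was 17.2 times that of Fcgr2b at 0 h, 7.06 times at 2 h and 5.46 times at 4 h. That fall lay in Fcgr3, whose ratio to Fcgr2b was 15.2, 5.38 and 2.83. Fcgr1 to Fcgr2b was 1.06, 0.864 and 1.27, and Fcgr4 to Fcgr2b was 0.954, 0.821 and 1.36. Fcer1g relative to its 3 receptor partners was 0.701, 0.570 and 0.563, and Fcgrt relative to B2m was 1.80-fold of its 0 h ratio at 2 h and 0.270-fold at 4 h.

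The neighbours of the chromosome 1 genes were of several kinds. The long non-coding gene Gm10522 lay between Fcgr2b and Fcgr4 and had 5, 10 and 214 reads at 0, 2 and 4 h, or 6.79-fold and 36.2-fold of its low 0 h value. Of the protein-coding neighbours, Sdhc, a subunit of succinate dehydrogenase, was 1.45-fold and 1.47-fold at 2 h and 4 h, and Tomm40l, of the mitochondrial import pore, was 1.03-fold and 0.754-fold. Pcp4l1 was 0.374-fold and 0.379-fold. Some markers of other cells also moved in these libraries. The neutrophil list summed to 5994, 14246 and 16104 normalised reads at 0, 2 and 4 h, the NK cell list to 12.9, 34.9 and 119.55, the T cell list to 0.643, 179 and 285 and the dendritic cell list to 72.0, 170.3 and 309.7. Single genes gave most of these sums at 4 h: Csf3r gave 16680 of 29635 neutrophil reads, Klrk1 gave 218 of 220 NK cell reads, Lck 524 of 525 T cell reads and Ccr7 483 of 570 dendritic cell reads. At 2 h Csf3r gave only 1986 of 6524 neutrophil reads. S100a9, Ngp, Ltf and Camp then stood at 2.29- to 3.61-fold of 0 h and Mpo at 1.43-fold, while S100a8, Elane and Ly6g were below 0 h. Ncr1, Gzma, Cd3e, Cd3g and Trac had none at any of these times. Their part in the Fc receptor values was not tested.

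AAV-Shisa3 was compared with AAV-GFP to see what raised Shisa3 does to the macrophage transcriptome. Shisa3 itself was at 7.88 and 10.9 TPM with AAV-GFP and at 12.3 and 17.8 TPM with AAV-Shisa3. The groups did not overlap, but the difference did not pass limma's test (log2 fold change 0.63, adjusted p = 0.138). Of the Fc receptors, Fcgrt rose in AAV-Shisa3 and no member passed the test downward. Fcgr1, Fcgr3, Fcgr4 and Fcer1g lay below both controls in AAV-Shisa3 but did not pass, and Fcgr2b overlapped between the groups. Of all genes tested, 41.2% lay below both controls and 18.2% above both.

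Fcgrt was measured at 53.1 and 52.4 TPM in AAV-GFP and at 86.3 and 79.9 TPM in AAV-Shisa3. Both AAV-Shisa3 samples lay above both controls, by far more than the spread within either group. The log2 fold change on log2(TPM + 1) was 0.64 ± 0.08 (SE, n = 2 per group), a fold of 1.56 with a 95% interval of 1.36 to 1.80 (limma, adjusted p = 0.0216). It ranked 311th from the top among 11218 genes tested. The call was lost without limma's trend (adjusted p = 0.0597), with no filter on low genes (adjusted p = 0.105) and without any 1 of the 4 samples (adjusted p = 0.0920 to 0.180), although the log2 fold change stayed between 0.59 and 0.76 in every setting tried.

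The light chain that Fcgrt needs did not show the same difference. B2m was at 4898 and 4361 TPM in AAV-GFP and at 4319 and 4793 TPM in AAV-Shisa3, with overlapping groups and a log2 fold change of -0.02 (limma, adjusted p = 0.896). The ratio of Fcgrt to B2m was 0.0108 and 0.0120 in AAV-GFP and 0.0200 and 0.0167 in AAV-Shisa3. Fcgrt transcript therefore remained far below that of its partner in every sample.

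Fcgr1 was the next largest difference, in the other direction. Its levels were 1127 and 1005 TPM in AAV-GFP and 862 and 812 TPM in AAV-Shisa3. The groups did not overlap, and the log2 fold change was -0.35 ± 0.08 (SE, n = 2 per group) with a 95% interval of -0.56 to -0.14. The adjusted p from limma was 0.0694, short of the threshold of 0.05.

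The other activating receptors were closer to the controls. Fcgr4 was at 538 and 484 TPM in AAV-GFP and at 471 and 410 TPM in AAV-Shisa3 (log2 fold change -0.22, 95% interval -0.46 to 0.03, limma adjusted p = 0.217). Fcgr3 was at 444 and 458 TPM and then at 425 and 402 TPM (log2 fold change -0.13, interval -0.30 to 0.05, limma adjusted p = 0.297). For both, the AAV-Shisa3 samples lay just below the controls, and the intervals included 0.

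Fcer1g was the most abundant member, ranked 28th to 32nd among all genes in the 4 samples. It stood at 2955 and 2913 TPM in AAV-GFP and at 2700 and 2589 TPM in AAV-Shisa3 (log2 fold change -0.15, interval -0.32 to 0.02, limma adjusted p = 0.224). Fcgr2b, the inhibitory receptor, was at 112 and 157 TPM in AAV-GFP and at 125 and 151 TPM in AAV-Shisa3. The controls of Fcgr2b enclosed the AAV-Shisa3 samples, and its interval was the widest of the members (log2 fold change 0.05, interval -0.38 to 0.48, limma adjusted p = 0.878).

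**Figure D2:**
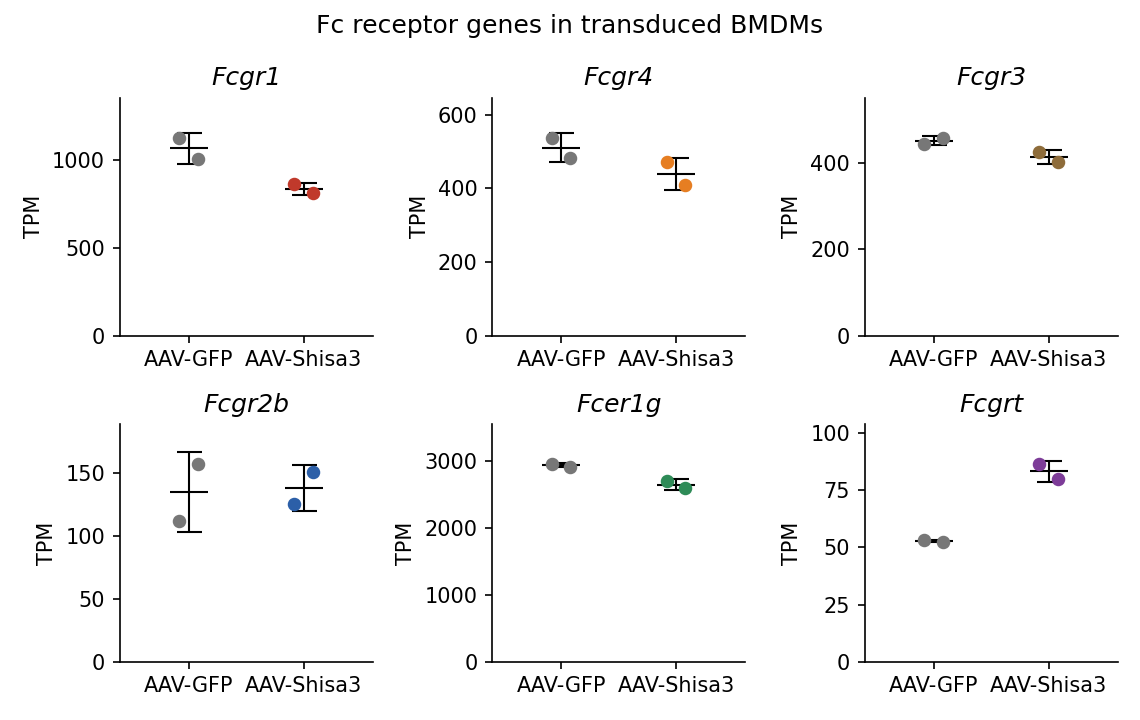
TPM of each member in the AAV-GFP and AAV-Shisa3 samples, with axes from 0. Points are samples (n = 2 per group), and the horizontal mark and bars give the mean and SD. Fcgrt sits at 52.4 to 53.1 TPM in AAV-GFP and 79.9 to 86.3 TPM in AAV-Shisa3, whereas the points of Fcgr2b overlap.

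Against the whole transcriptome these counts were modest. In limma's test 2.23% of genes were higher and 4.1% lower in AAV-Shisa3 at an adjusted p under 0.05, and 1 of 6 members was higher and 0 were lower. At an unadjusted p under 0.05, 1 member was higher (Fcgrt) and 1 was lower (Fcgr1), beside 921 and 2216 of all 11218 genes. That 4 of 6 members were below both controls is to be read against the 41.2% of all genes that were, and 1 of 6 above against 18.2%.

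Most genes were slightly lower in AAV-Shisa3, with a median log2 fold change of -0.10 over all genes and -0.14 over the members. Centring each sample on its median turned the count of calls from 250 higher and 460 lower to 410 higher and 230 lower. Under centring Fcgr1 was at -0.23 on the log2 scale (limma adjusted p = 0.237), Fcgr4, Fcgr3 and Fcer1g were at -0.10, -0.01 and -0.03, and Fcgrt remained past the test (adjusted p = 0.0205).

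**Figure D3:**
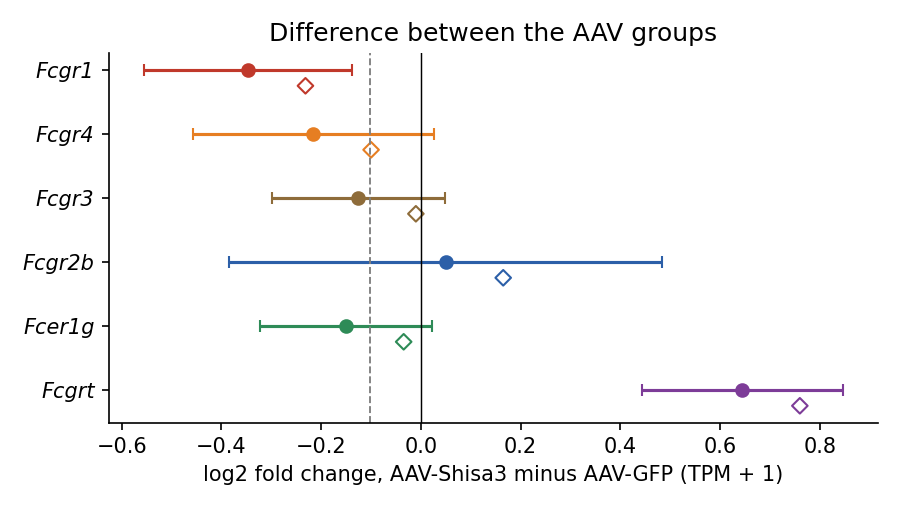
Log2 fold change of AAV-Shisa3 over AAV-GFP for each member on log2(TPM + 1). Filled points with bars are limma estimates with 95% intervals, open diamonds are the values after centring each sample on its median, the solid line is 0 and the dashed line is the median of all genes (-0.10). Only the bars of Fcgrt and Fcgr1 keep clear of 0.

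The levels of the members followed 1 order in all 4 AAV samples: Fcer1g, Fcgr1, Fcgr4, Fcgr3, Fcgr2b and Fcgrt, from high to low in TPM. Only Fcgr4 and Fcgr3 were neighbours whose ranges met, in AAV-Shisa3. Fcgr1 was 2.54 and 2.19 times as high as Fcgr3 in AAV-GFP and 2.03 and 2.02 times in AAV-Shisa3. With 2 samples against 2 the smallest exact two-sided permutation p is 0.333, so ratios are given without a p.

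Activating relative to inhibitory transcripts, as the sum of Fcgr1, Fcgr3 and Fcgr4 over Fcgr2b, came to 18.8 and 12.4 in AAV-GFP and to 14.0 and 10.8 in AAV-Shisa3. These ranges overlapped, and the AAV-GFP samples differed from each other more than the group means did. Fcer1g over its 3 partners was 1.40 and 1.5 in AAV-GFP and 1.54 and 1.59 in AAV-Shisa3. The ratio of Fcgr1 to Fcgrt, the members with the largest differences in each direction, was 21.2 and 19.2 in AAV-GFP and at 9.98 and 10.2 in AAV-Shisa3.

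The make-up of the IgG receptors was unlike between the experiments. In all 4 AAV samples Fcgr1 was the leading receptor, with 45.8% to 50.8% of the 4 receptors' summed TPM, and Fcgr3 held 20.0% to 22.6%. In the unstimulated LPS 0h library Fcgr3 held 83.5% and Fcgr1 5.83%. The tables were made separately, and virus, time in culture and processing cannot be told apart here. The LPS shares also rest on the transcript length taken for each gene.

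**Figure D4:**
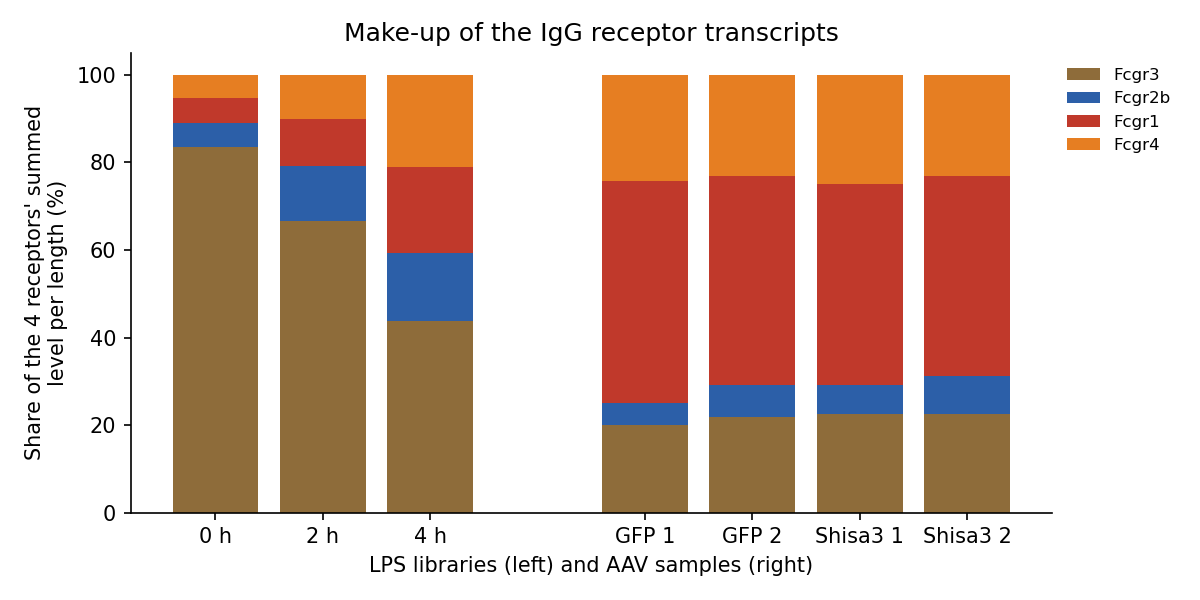
Share of each IgG receptor in the summed level of the 4, per length, in the 3 LPS libraries (normalised reads per kb) and the 4 AAV samples (TPM). Each bar is 1 sample. Fcgr3 goes from 83.5% at 0 h to 43.9% at 4 h, and it holds 20.0% to 22.6% in the AAV samples.

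The other Fc receptors were mostly silent. Of 12 listed, 3 were tested in the AAV table and none passed (limma; before adjustment 2 were higher and 1 lower at p under 0.05). Trim21, the cytosolic antibody receptor, was at 59.3 and 66.6 TPM in AAV-GFP and at 92.8 and 79.4 TPM in AAV-Shisa3 (limma adjusted p = 0.0707), with no overlap. Fcrl1 was at 11.1 and 10.6 TPM and then at 14.7 and 14.3 TPM (limma adjusted p = 0.0868), and Fcrl5 at 22.6 and 29.0 TPM and then at 17.1 and 19.3 TPM (limma adjusted p = 0.109). Under LPS, Trim21 reached 8.38 times its 0 h value at 2 h and 11.1 times at 4 h, beside 3.18 and 11.1 times for Fcgr1. Fcrlb had 1, 46 and 296 reads and Fcrla 11, 1 and 1, while Fcrl1 had 217, 33 and 60. Fcer1a, Fcer2a, Fcamr and Pigr had at most 1 read in any LPS library.

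Other receptors that sit with the Fcer1g chain numbered 9, of which 4 were tested in the AAV table and none passed (limma; 2 were higher at an unadjusted p under 0.05). At 4 h of LPS 3 of 5 were at least 2-fold higher and none lower, beside 22.2% and 23.6% of all genes. Clec4e (Mincle), a receptor for mycobacterial glycolipid, was 20.5-fold at 2 h and 63.0-fold at 4 h, and Clec4d, its close relative, was 2.83-fold and 2.67-fold. Gp6, the collagen receptor of platelets, had 2, 2 and 25 reads.

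Of the ITAM signalling genes downstream, 1 rose and 3 fell among 30 tested in AAV-Shisa3, with a median log2 fold change of -0.05, beside 2.23% higher and 4.1% lower of all genes. These shares apply to the AAV counts of the lists that follow as well. The 3 higher and 5 lower calls of all the lists went to 0 and 0 without limma's trend, with no filter and without any 1 sample, and to 5 and 2 under centring. The exchange factors Vav2 and Vav3 fell. Vav2 was at 7.65 and 9.59 TPM against 17.6 and 17.8 TPM in the controls (log2 fold change -0.97, limma adjusted p = 0.0238), and Vav3 from 11.8 and 12.7 TPM to 7.48 and 8.12 TPM (-0.59, limma adjusted p = 0.0465). Card9, an adaptor below Syk, fell from 47.6 and 47.2 TPM to 33.9 and 34.2 TPM (-0.47, limma adjusted p = 0.0347). The Src family kinase Fgr rose from 35.9 and 40.8 TPM to 56.0 and 66.7 TPM (0.66, limma adjusted p = 0.0377). Syk was at 311 and 335 TPM and then at 263 and 273 TPM, short of the threshold (limma adjusted p = 0.0894).

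At 4 h of LPS 13 of 32 ITAM signalling genes were at least 2-fold higher and 7 lower, beside 22.2% and 23.6% of all genes. These shares of all genes apply to the 4 h counts of the lists that follow as well. Over all the lists the 4 h counts were 34 higher and 15 lower, and under library totals they turned to 22 higher and 31 lower. Malt1, a paracaspase of the Card9 arm, was 22.6-fold and 35.8-fold at 2 h and 4 h. Src was 38.5-fold and 44.3-fold, and Rasgrp3, an exchange factor for Ras, had 590, 29 and 7 reads. Vav2 was at 0.931-fold and 0.209-fold.

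Of 21 genes of inhibitory signalling, 2 rose and 1 fell in AAV-Shisa3. Cd300a, an ITIM receptor, rose in AAV-Shisa3, to 19.3 and 19.1 TPM against 11.6 and 11.9 TPM (log2 fold change 0.67, limma adjusted p = 0.0272), and Lilrb4a, another ITIM receptor, rose from 225 and 221 TPM to 330 and 307 TPM (0.51, limma adjusted p = 0.0242). Siglece, a sialic acid receptor with an ITIM, fell from 345 and 363 TPM to 280 and 279.7 TPM (-0.34, limma adjusted p = 0.0485). Inpp5d, the phosphatase that Fcgr2b recruits, was at 268 and 273 TPM and then at 161 and 213 TPM, and did not pass (limma adjusted p = 0.0713).

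Under LPS the receptor Fcgr2b and its phosphatase Inpp5d went opposite ways: Inpp5d was at 4868, 2697 and 334 normalised reads, or 0.0687-fold at 4 h. In this list 7 of 21 genes were at least 2-fold higher at 4 h and 2 lower. Siglece was 7.89-fold at 4 h and Cd300a 0.166-fold.

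None of the 27 phagocytic cup and oxidase genes passed limma's test in AAV-Shisa3, with 1 higher and 4 lower before adjustment (p under 0.05). At 4 h of LPS 7 of them were at least 2-fold higher and 2 lower, among them the actin regulator Vasp at 6.44-fold, the engulfment factor Elmo1 at 4.16-fold and the oxidase subunit Cybb at 4.01-fold. Of the genes that partner FcRn or sort IgG, 6 were tested and 1 fell. This was Rab11fip5, an effector of recycling endosomes, at 28.6 and 30.1 TPM against 52.2 and 54.3 TPM in the controls (log2 fold change -0.84, limma adjusted p = 0.0174), opposite in direction to Fcgrt. Rab11fip5 was 0.322-fold at 2 h and 0.177-fold at 4 h of LPS. At 4 h 2 of 7 genes of this list were at least 2-fold higher and 2 lower, Amn being at 5, 0 and 1 reads.

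**Figure D5:**
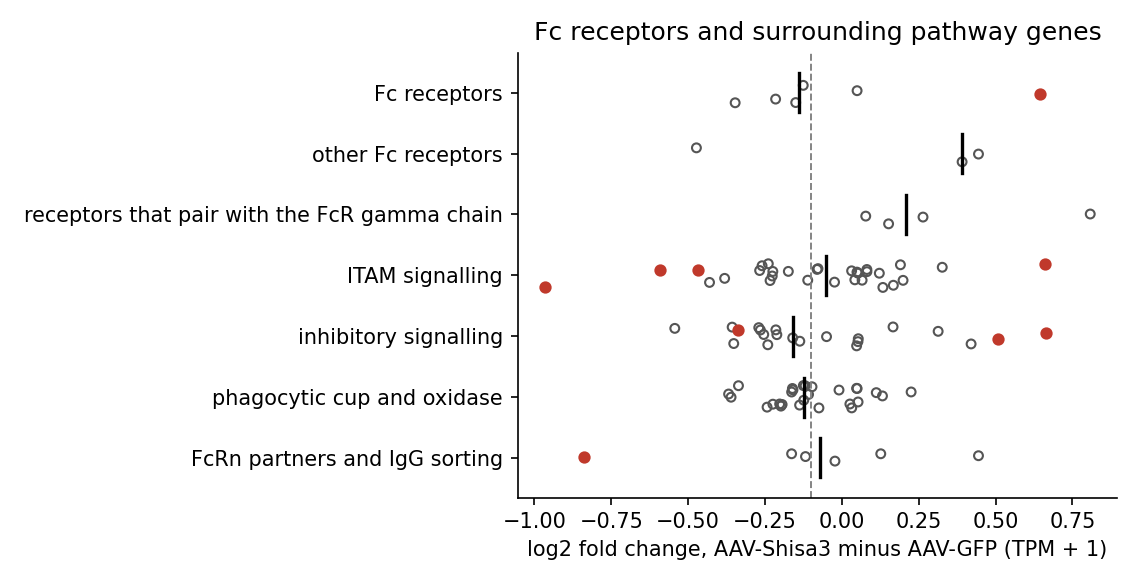
Log2 fold change of AAV-Shisa3 over AAV-GFP for the 6 Fc receptors and the tested genes of the 6 pathway lists. Filled red points passed limma's test at an adjusted p under 0.05, open points did not, short black lines are list medians and the dashed line is the median of all genes (-0.10). Fcgrt is the only filled point of the first line, and the lists hold 3 filled points on the right and 5 on the left, with vertical scatter added for legibility.

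Genes with the most similar pattern were sought by the Euclidean distance of log2 values centred within each experiment, over the 7 samples and 10529 genes. Fcgr1 and Fcgr4 were among each other's 3 nearest genes, at a distance of 0.240, and both lay near Vegfc (0.225 and 0.191) and Zfp503 (0.198 and 0.373). Fcgr2b lay nearest to Fam102b (0.261), Eif2ak2 (0.316) and Csf3r (0.344). Fcgr3 lay nearest to Gfm1, Cs and Copb2 (0.0664 to 0.0991), Fcer1g to Ywhae, Trim12c and Twsg1 (0.118 to 0.129) and Fcgrt to Scp2-ps2, Stk10 and Eefsec (0.316 to 0.327). The 7 samples share libraries and scaling across genes, so these distances are descriptions only.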

How the data were processed

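BMDM RNA was sequenced in 3 LPS libraries and 4 AAV samples, grouped by the sample labels. For LPS the authors deposited a signal per gene, the reads of a gene over a factor for that library. All values (100%) were whole multiples of 1 step within 0.01, so reads were recovered, but with 1 library per time no count test was possible. For AAV the authors deposited values read as TPM, inferred from sums of 999778 to 999818 per sample. The labels name mm9. The aligner, the counting program and its strand setting are not given in the sources used here. The members and gene lists were chosen with earlier results of these data known.

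Log2 fold changes used log2(value + 1) for genes with a mean of at least 1, which understates changes of low genes, and LPS folds are plain ratios of the deposited values. AAV groups were compared with limma 3.58.1 (trended, Benjamini-Hochberg over 11218 genes, threshold 0.05) in R 4.3.3. Shares of reads carried 95% intervals. Per-kb levels used the longest coding transcript. Named pathway genes were, per list, up to 5 past the AAV test and the 3 with the largest absolute LPS 4h change. Others named (Syk, Inpp5d in AAV, the remaining Fc receptors) were chosen for their tie to the members. LPS identifiers matched GENCODE M21 for 99.2% of genes in any version and for 83.8% in the same version. AAV symbols matched it for 96.4% of genes, and all 6 members matched RefSeq promoters. Tests were tried on simulated data. Alternatives were other pseudocounts, filters, scalings (edgeR 4.0.16, DESeq2 1.42.0), the replicate block and leaving out samples.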

Additional observations from a re-analysis of the deposited data

How the results depend on the processing

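The AAV calls changed with several settings, for causes that were not tested. With no filter on low values or without limma's trend, 0 members and 0 genes of the other lists passed in either direction, although before adjustment 1 member was higher and 1 lower (p under 0.05) in both. Leaving out any 1 sample, with the lone sample assumed to vary like the others, gave 0 to 0 calls among members and lists, and 0 to 27 higher and 0 to 7 lower calls over all genes against 250 and 460. Over all genes, calls were 0 and 0 with no filter and 1 and 4 without the trend. For the other lists, requiring 1 TPM in every sample gave 8 lower calls in place of 5, and centring gave 5 higher and 2 lower. Fcgr2b turned to -0.19 without AAV-GFP replicate 1 and to -0.08 without AAV-Shisa3 replicate 2, from 0.05, and ran up to 0.29 without AAV-GFP replicate 2.

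The AAV samples share replicate numbers, but no label ties a number to a batch, and the replicate differences correlated at 0.188 over 11218 genes with only 2 pairs. With the replicate number as a block 1 member, Fcgr1, was lower (adjusted p = 0.0286), 9 other list genes were lower, and 424 genes were higher and 851 lower in all. Fcgrt remained called (adjusted p = 0.0171).

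Under LPS, library totals left 1 member, Fcgrt, at least 2-fold lower at 4 h, and gave 13 higher and 19 lower genes of the other lists at 2 h and 22 higher and 31 lower at 4 h, against 28 and 6, and 34 and 15. Centring moved the median of all genes to 0.26 at 2 h and 0.33 at 4 h. Over the alternatives the 4 h log2 change ran from 2.65 to 3.85 for Fcgr1, 2.91 to 4.10 for Fcgr4, 2.40 to 3.60 for Fcgr2b, -0.02 to 1.17 for Fcgr3, 0.43 to 1.62 for Fcer1g and -1.26 to -0.07 for Fcgrt. The cause of these shifts was not tested. The 2 h library is the shallowest, and the number of LPS libraries allows no error beyond counting.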

Other observations

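Some genes around the Fc receptors had very unlike levels in the 2 experiments. They were picked after their values were seen and carry no test. Siglece, a sialic acid receptor, had 41, 50 and 383 reads in the LPS libraries but 280 to 363 TPM in the AAV samples. Fcrl5, an Fc receptor-like gene known from B cells, had 1, 0 and 9 reads under LPS and 17.1 to 29.0 TPM in the AAV samples. Rasgrp3 went the other way, with 590 reads at 0 h of LPS and at most 0.07 TPM in the AAV samples.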
